A study of Rattus norvegicus with 16 samples.

Results

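Microtubules are hollow polymers of paired alpha and beta tubulin, and the genes described here encode the tubulins, the stathmins that bind free tubulin dimers and the proteins that bind the polymer. The members were taken by their symbols from the deposited gene tables and made up 41 of 31038 genes. They were 7 alpha tubulin genes (Tuba1a, Tuba1b, Tuba1c, Tuba3a, Tuba3b, Tuba4a and Tuba8), 8 beta tubulin genes (Tubb1, Tubb2a, Tubb2b, Tubb3, Tubb4a, Tubb4b, Tubb5 and Tubb6), 2 gamma tubulin genes (Tubg1 and Tubg2) and 4 stathmins (Stmn1 to Stmn4). A further 9 encode structural microtubule-associated proteins (Map1a, Map1b, Map1s, Map2, Map4, Map6, Map7, Map9 and Mapt), 7 encode proteins of the growing plus end (Mapre1, Mapre2, Mapre3, Clip1, Clip2, Clasp1 and Clasp2), 2 the tubulin polymerization promoting proteins (Tppp and Tppp3) and 2 the doublecortin family (Dcx and Dclk1). The rule that picks them uses symbols and no measured value.

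RNA came from the sciatic nerve of the rat in 8 groups with 2 libraries each, which were purified Schwann cells and whole nerve, each uncrushed or at days 3, 5 and 7 after a crush of the left nerve at mid-thigh on postnatal day 18. The labels give the age P18 for every group, uncrushed included. If uncrushed nerves were taken at P18 as labelled, nerves taken days after a crush came from older rats. Age and time after crush then cannot be told apart. Uncrushed nerves had no sham operation, and crushed nerves were sampled distal to the injury. The labels give no transgene and no drug for any group. The paper states that surgery was done under isoflurane and that carprofen was given against pain. Effects of these drugs and of the crush cannot be told apart here. Each sample pooled at least 10 nerves. Schwann cells were isolated by immunopanning, in which a suspension of dissociated nerve is depleted of cells that bind antibodies to CD45 and Thy1 and the cells that bind O4 are kept, whereas RNA of whole nerve was extracted without dissociation. In these 16 libraries the difference between the tissues and the effect of dissociation cannot be told apart, and the dissociated nerve that the study also describes was not analysed here.

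Alpha and beta tubulin add to the ends of a microtubule as dimers, gamma tubulin starts new microtubules at organizing centres, and the isotypes of each family differ mainly in a short C-terminal tail. Stathmins hold dimers away from the polymer, structural microtubule-associated proteins bind along the lattice and space or stabilize it, and plus-end proteins ride on growing tips. Schwann cells carry RNA and membrane along microtubules into the myelin sheath, and Tubb4a is known as the beta tubulin of myelinating glia. Tubb3, Stmn2, Stmn3, Dcx and Mapt are best known from neurons, and axons hold some RNA of their own. Because whole nerve is bulk tissue, fewer cells of a type and less RNA per cell cannot be told apart in it.

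Promoter sequences are shown for 4 tubulin genes whose levels moved in different ways, Tubb2b and Tuba1c, which rose in Schwann cells, Tuba4a, which fell there, and Tubb4a, which moved in opposite directions in the 2 tissues. Each window runs 5′ to 3′ in RefSeq's GRCr8 annotation from 250 bases before to 50 bases after the annotated gene start. The windows are chr17:30952836-30953135 (plus strand) for Tubb2b, chr7:132070734-132071033 (plus strand) for Tuba1c, chr9:84162535-84162834 (minus strand) for Tuba4a and chr9:2012232-2012531 (minus strand) for Tubb4a. Capitals mark matches on either strand to the 6 motifs searched, which were AP-1 (TGANTCA), CRE (TGACGTCA), the E-box (CACGTG), the CCAAT box (CCAAT), the GC box (GGGCGG) and the TATA box (TATAAA).
Tubb2b: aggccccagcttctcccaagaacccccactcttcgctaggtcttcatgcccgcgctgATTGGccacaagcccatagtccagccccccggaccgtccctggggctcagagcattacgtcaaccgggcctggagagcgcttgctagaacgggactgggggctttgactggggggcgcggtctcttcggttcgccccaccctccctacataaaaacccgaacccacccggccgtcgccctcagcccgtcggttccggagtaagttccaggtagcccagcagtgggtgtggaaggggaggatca
Tuba1c: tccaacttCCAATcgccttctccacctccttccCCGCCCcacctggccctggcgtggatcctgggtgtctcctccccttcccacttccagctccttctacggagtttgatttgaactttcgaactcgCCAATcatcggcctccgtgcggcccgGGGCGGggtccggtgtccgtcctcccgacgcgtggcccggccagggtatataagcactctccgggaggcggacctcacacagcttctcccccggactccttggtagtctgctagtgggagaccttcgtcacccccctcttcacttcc
Tuba4a: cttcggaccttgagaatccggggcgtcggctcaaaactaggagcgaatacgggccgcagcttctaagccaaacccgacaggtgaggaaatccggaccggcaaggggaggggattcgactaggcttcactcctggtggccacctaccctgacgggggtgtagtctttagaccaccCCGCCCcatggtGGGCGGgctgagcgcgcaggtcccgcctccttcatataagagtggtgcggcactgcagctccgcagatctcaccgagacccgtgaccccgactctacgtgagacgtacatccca
Tubb4a: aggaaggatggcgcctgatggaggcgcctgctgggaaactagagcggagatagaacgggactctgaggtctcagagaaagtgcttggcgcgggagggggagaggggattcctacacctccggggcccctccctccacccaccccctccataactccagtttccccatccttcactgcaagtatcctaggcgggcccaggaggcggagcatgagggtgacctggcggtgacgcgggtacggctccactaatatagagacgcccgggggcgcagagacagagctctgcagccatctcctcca
The Tubb4a window held no match to these letters. Windows existed for 34 of the 41 members and for 27457 symbols in all, and no window was given for Clip1, Map4, Map6, Mapt, Stmn2, Stmn4 or Tppp3. The CCAAT box was in 61.8% of the members' windows and in 37.7% of all windows, the GC box in 58.8% and 34.9%, and the E-box in 17.6% and 6.65%. TATAAA was in 17.6% and 14.3%. AP-1 letters were in 5.88% of the members' windows (Dclk1 and Mapre3) and 7.33% of all, and CRE letters in 2.94% (Tubb2a) and 1.91%. A match is a description of the sequence and no evidence of binding.

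The libraries held 10555067 to 27562637 expected counts. Levels are given as RSEM's FPKM divided by the library's TMM factor, written below as scaled FPKM, which is a level per gene length, and changes are log2 fold changes from edgeR with the standard error (SE). The Schwann cell markers were present in all libraries, with Sox10 at a mean of 63.4 scaled FPKM in uncrushed Schwann cells and 62 to 85.2 in the crushed groups. Of 8 such markers, 3 were higher and 4 lower in Schwann cells at day 3, and 2 higher and 4 lower in whole nerve. Among the Schwann cell libraries, summed markers of macrophages lay at 2.43 to 12.6 scaled FPKM and those of fibroblasts at 149 to 320.3, against 145 to 521 and 4978 to 5931 in whole nerve. In the 4 Schwann cell groups, 3 to 4 of 4 fat cell markers and 1 to 5 of 5 skeletal muscle markers were at or under the floor of 3 counts a library. Muscle markers there summed to at most 4.43 scaled FPKM, in an uncrushed library. Summed markers of dividing cells went up in both tissues without overlap, from 173 to 176 scaled FPKM in uncrushed Schwann cells to 542 to 547 at day 3, and from 49.4 to 50.1 in uncrushed whole nerve to 567 to 591. Replicate 2 of uncrushed whole nerve stood apart in 1 respect, with summed skeletal muscle markers at 869.7 scaled FPKM against 42.9 in replicate 1. These markers also differed between the day 7 whole nerve libraries, at 6.31 and 86.2 scaled FPKM, and all 5 were lower than in uncrushed nerve at days 3 and 5 and 2 at day 7. The part of these markers in the results was not tested.

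The members covered a wide range of levels. Tuba1a and Tuba1b were the most abundant, with medians over the 16 libraries of 1056 and 976 scaled FPKM, followed by Stmn1 at 497, Map4 at 207 and Map1b at 173. Tuba3a, Tuba3b, Tuba8 and Tubb1 had too few counts for any test, with 2, 10, 37 and 9 counts over all libraries. In Schwann cells Dcx and Stmn3, and in whole nerve Tubg2, were also too low to test, which left 35 members tested in Schwann cells, 36 in whole nerve and 37 in the fit of both. Reads of 9 members were divided by RSEM between similar genes, as their counts were not whole in at least 1 library. These were Tuba1a, Tuba1b, Tuba1c, Tubb2a, Tubb2b, Tubb4b, Tubg1, Tubg2 and Stmn1, and the division between them is uncertain. Reads from overlapping antisense genes could not be separated either, since strand use is not stated.

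In Schwann cells, most tested members were higher at day 3 after crush. At day 3, 23 of 35 were higher and 5 lower than in uncrushed Schwann cells, where 26.9% of all genes tested were higher and 25.7% lower. At day 5 the counts were 19 higher and 4 lower (29% and 25.6% of all genes), and at day 7 they were 16 higher and 5 lower (25% and 21.9%). Without 1 library the higher members numbered 19 to 23, 15 to 18 and 13 to 17 at the 3 days. The median log2 fold change over the tested members was 0.62, 0.56 and 0.46 at the 3 days, against 0.00, 0.06 and 0.06 over all genes. All 3 days were compared with the same uncrushed libraries. Of these calls, 21 of 28, 19 of 23 and 14 of 21 held in every alternative analysis, and those that did not were weaker in most cases without 1 library.

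In whole nerve the members were divided. At day 3, 13 of 36 were higher and 12 lower, where 23.1% of all genes tested were higher and 22.5% lower. At day 5 the counts were 10 higher and 14 lower (18.9% and 19.5% of all genes), and at day 7 they were 8 higher and 16 lower (15.4% and 15.9%). The members' median log2 fold changes were -0.04, -0.28 and -0.42, against 0.00, -0.01 and 0.02 over all genes. With 2 libraries against 2, an exact permutation test of 1 gene has 0.333 as its smallest p. The adjusted p-values therefore rest on the spread that edgeR shares between genes and groups, and they measure the spread between pools of nerves only.

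**Figure D1:**
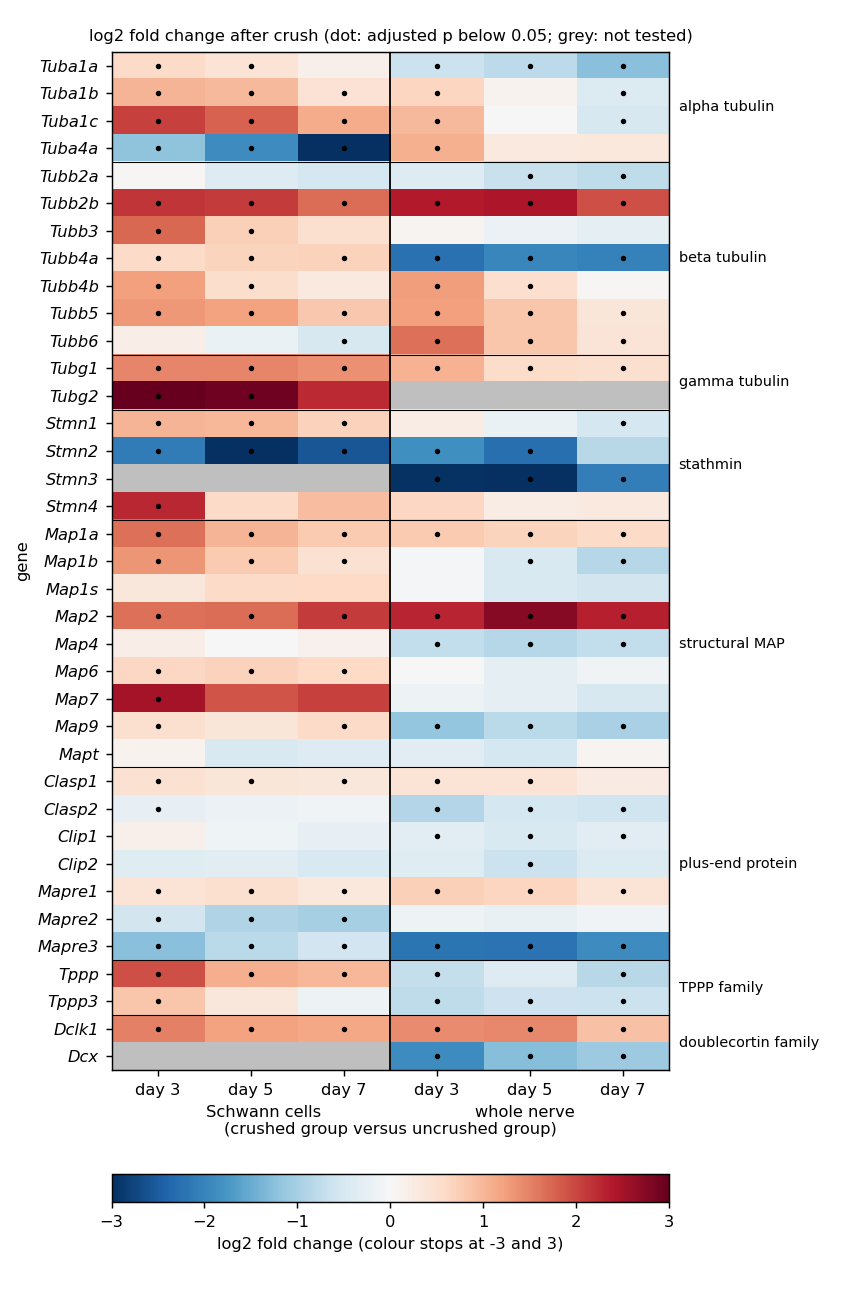
Colour gives the log2 fold change of each tested member (vertical axis, ordered by role) against the uncrushed group of the same tissue at days 3, 5 and 7 (horizontal axis), and dots mark an edgeR adjusted p below 0.05. The Schwann cell columns hold 23, 19 and 16 higher members and the whole nerve columns 13, 10 and 8.

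Alpha tubulin RNA was made up almost wholly of Tuba1a, Tuba1b and Tuba1c, and all 3 were higher in Schwann cells at day 3 while Tuba4a was lower. Tuba1a lay at 754 and 839 scaled FPKM in the 2 uncrushed Schwann cell libraries, then 1214 and 1116 (day 3), 1031 and 1069 (day 5) and 829 and 914 (day 7). Its rise at day 3 had a log2 fold change of 0.58 ± 0.10 (SE, edgeR adjusted p = 0.00121), and at day 7 its values overlapped the uncrushed ones, at means of 796 ± 59.8 and 871 ± 59.4 scaled FPKM (SD, n = 2). In whole nerve Tuba1a lay at 1693 and 1764 scaled FPKM in the 2 uncrushed whole nerve libraries, then 1105 and 1195 (day 3), 1042 and 1104 (day 5) and 779.5 and 761 (day 7). Both uncrushed nerves were above all 6 crushed nerves, and the fall had a log2 fold change of -0.65 ± 0.085 (SE, edgeR adjusted p = 0.000133) at day 3 and -1.26 ± 0.086 (SE, edgeR adjusted p = 2.75e-06) at day 7.

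Tuba1b, which encodes an alpha tubulin found in most tissues, lay at 629 and 631 scaled FPKM in the 2 uncrushed Schwann cell libraries, then 1200 and 1285 (day 3), 1254 and 1187 (day 5) and 805 and 881 (day 7). The day 3 comparison gave a log2 fold change of 1.01 ± 0.098 (SE, edgeR adjusted p = 2.15e-05), and all 6 crushed Schwann cell libraries were above both uncrushed ones. Tuba1b in whole nerve lay at 934 and 879.6 scaled FPKM in the 2 uncrushed whole nerve libraries, then 1473 and 1511 (day 3), 1019 and 1082 (day 5) and 702 and 751 (day 7). This was a rise with a log2 fold change of 0.65 ± 0.084 (SE, edgeR adjusted p = 0.000124) at day 3 and a fall with -0.41 ± 0.084 (SE, edgeR adjusted p = 0.00385) at day 7. Tuba1c showed the largest relative change of the alpha tubulins that rose. It lay at 27.8 and 24.9 scaled FPKM in the 2 uncrushed Schwann cell libraries, then 95.8 and 118 (day 3), 88.6 and 88.1 (day 5) and 54.6 and 58.4 (day 7). Here the groups did not overlap, and Tuba1c had a log2 fold change of 2.05 ± 0.13 (SE, edgeR adjusted p = 1.01e-06) at day 3 and 1.11 ± 0.12 (SE, edgeR adjusted p = 7.99e-05) at day 7. Tuba1c of whole nerve lay at 85.4 and 90.6 scaled FPKM in the 2 uncrushed whole nerve libraries, then 178 and 183 (day 3), 91.3 and 96.7 (day 5) and 68.8 and 65 (day 7). This was a rise with a log2 fold change of 0.97 ± 0.086 (SE, edgeR adjusted p = 8.56e-06) at day 3 and a fall with -0.49 ± 0.087 (SE, edgeR adjusted p = 0.00178) at day 7.

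Tuba4a, a divergent alpha tubulin abundant in adult brain and muscle, ran against the others. It lay at 7.59 and 8.45 scaled FPKM in the 2 uncrushed Schwann cell libraries, then 3.1 and 3.6 (day 3), 2.15 and 2.02 (day 5) and 1.19 and 0.788 (day 7), so that every later group was below the one before it without overlap. The fall had a log2 fold change of -1.21 ± 0.24 (SE, edgeR adjusted p = 0.00209) at day 3, -1.89 ± 0.25 (SE, edgeR adjusted p = 0.000173) at day 5 and -2.98 ± 0.27 (SE, edgeR adjusted p = 2.27e-05) at day 7. In whole nerve Tuba4a lay at 1.71 and 3.29 scaled FPKM in the 2 uncrushed whole nerve libraries, then 5.36 and 5.49 (day 3), 3.69 and 2.83 (day 5) and 3.57 and 3 (day 7). Its day 3 comparison gave a log2 fold change of 1.06 ± 0.29 (SE, edgeR adjusted p = 0.0139), and this call rested on single libraries. Tuba4a at day 3 in whole nerve was at a log2 fold change of 0.66 without uncrushed replicate 1 (edgeR adjusted p = 0.112) and of 1.04 without day 3 replicate 2 (edgeR adjusted p = 0.0603). The uncrushed library with the higher Tuba4a value was the one with the high skeletal muscle markers, and Tuba8, another gene of muscle and testis, had 0 scaled FPKM in the other uncrushed library and 1.28 in that one. The part of muscle in the Tuba4a values was not tested.

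Of the 7 beta tubulin genes tested, 5 were higher and none lower in Schwann cells at day 3, and 4 were higher and 1 lower in whole nerve, where of all genes 26.9% and 25.7% (Schwann cells) and 23.1% and 22.5% (whole nerve) were higher and lower. Tubb2b, a beta tubulin of the developing nervous system, changed most among them. It lay at 42.4 and 47.5 scaled FPKM in the 2 uncrushed Schwann cell libraries, then 213 and 179.8 (day 3), 198 and 182 (day 5) and 128 and 158 (day 7). The rise had a log2 fold change of 2.15 ± 0.14 (SE, edgeR adjusted p = 1.51e-06) at day 3, 2.10 at day 5 and 1.68 at day 7, with no overlap between crushed and uncrushed libraries. Whole nerve showed the same direction, as Tubb2b lay at 15.2 and 22.7 scaled FPKM in the 2 uncrushed whole nerve libraries, then 99.5 and 104 (day 3), 98.2 and 119 (day 5) and 71.4 and 82.3 (day 7). The comparison there gave a log2 fold change of 2.38 ± 0.18 (SE, edgeR adjusted p = 2.4e-06) at day 3 and 2.44 ± 0.18 (SE, edgeR adjusted p = 2.76e-06) at day 5.

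Tubb5, a beta tubulin expressed in most dividing cells, was higher in all 6 crushed libraries than in both uncrushed ones in each tissue. It lay at 95 and 89.8 scaled FPKM in the 2 uncrushed Schwann cell libraries, then 227 and 221 (day 3), 202 and 217 (day 5) and 157 and 162 (day 7). The rise had a log2 fold change of 1.31 ± 0.091 (SE, edgeR adjusted p = 2.3e-06) at day 3. In whole nerve Tubb5 lay at 84.5 and 84.7 scaled FPKM in the 2 uncrushed whole nerve libraries, then 204 and 210.5 (day 3), 154 and 171 (day 5) and 114 and 117 (day 7). Its rise there had a log2 fold change of 1.22 ± 0.087 (SE, edgeR adjusted p = 1.65e-06) at day 3. Tubb4b, which is expressed in most tissues and in cilia, was at 43.6 and 36.3 scaled FPKM in uncrushed Schwann cells and 91.3 and 91 at day 3, a rise with a log2 fold change of 1.22 ± 0.14 (SE, edgeR adjusted p = 5.78e-05). In whole nerve the corresponding Tubb4b levels were 58.8 and 59.3 and 143 and 154 scaled FPKM, a rise with a log2 fold change of 1.26 ± 0.095 (SE, edgeR adjusted p = 2.57e-06). By day 7 Tubb4b stood at 50.2 and 46.4 in Schwann cells and 61.9 and 66.3 in whole nerve, above but close to its uncrushed range, and its call at day 5 in Schwann cells was lost without 1 library. Tubb4b at day 5 in Schwann cells was at a log2 fold change of 0.39 without uncrushed replicate 2 (edgeR adjusted p = 0.0602) and of 0.35 without day 5 replicate 2 (edgeR adjusted p = 0.0757).

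Tubb4a moved in opposite directions in the 2 tissues. In Schwann cells it lay at 16.2 and 16.3 scaled FPKM in the 2 uncrushed Schwann cell libraries, then 24.9 and 22.3 (day 3), 25.9 and 24.8 (day 5) and 22.6 and 29.5 (day 7). This was a modest rise with a log2 fold change of 0.57 ± 0.14 (SE, edgeR adjusted p = 0.00702) at day 3 that was not called without 1 library, and with 0.69 ± 0.14 (SE, edgeR adjusted p = 0.00288) at day 7. Tubb4a at day 3 in Schwann cells was at a log2 fold change of 0.46 without day 3 replicate 1 (edgeR adjusted p = 0.0632). In whole nerve Tubb4a lay at 69.7 and 83.2 scaled FPKM in the 2 uncrushed whole nerve libraries, then 17.4 and 16.5 (day 3), 19.1 and 22.9 (day 5) and 16 and 23.7 (day 7). Both uncrushed nerves were far above every crushed nerve, and the fall had a log2 fold change of -2.24 ± 0.17 (SE, edgeR adjusted p = 3.01e-06) at day 3 and -2.04 ± 0.17 (SE, edgeR adjusted p = 1.1e-05) at day 7. The part in these values of the Schwann cell markers, of which 4 of the 8 were lower at day 3 in each tissue, was not tested.

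Tubb6, a divergent beta tubulin of many non-neuronal tissues, rose in whole nerve and not in Schwann cells. It lay at 30.1 and 30.9 scaled FPKM in the 2 uncrushed whole nerve libraries, then 93.7 and 108 (day 3), 57.7 and 59.3 (day 5) and 42.5 and 43.2 (day 7). This was a rise with a log2 fold change of 1.66 ± 0.099 (SE, edgeR adjusted p = 4.47e-07) at day 3. In Schwann cells Tubb6 lay at 47.8 and 44.9 scaled FPKM in the 2 uncrushed Schwann cell libraries, then 51.4 and 52.2 (day 3), 37.6 and 42.2 (day 5) and 31.5 and 34.3 (day 7), where the day 3 comparison did not pass and day 7 was lower with a log2 fold change of -0.48 ± 0.10 (SE, edgeR adjusted p = 0.0042). Tubb3, known as the neuronal beta tubulin, was at 1.88 and 1.96 scaled FPKM in uncrushed Schwann cells and 5.98 and 6.52 at day 3, a log2 fold change of 1.73 ± 0.23 (SE, edgeR adjusted p = 0.000202). No whole nerve comparison with uncrushed nerve passed for Tubb3, which spanned 2.02 to 3.12 scaled FPKM over the 8 libraries. The call of Tubb3 at day 5 in Schwann cells was lost without single libraries. Tubb3 at day 5 in Schwann cells was at log2 fold changes of 0.43 to 0.72 (edgeR adjusted p = 0.0837 to 0.211) without uncrushed replicate 1, uncrushed replicate 2 or day 5 replicate 2. Summed neuron and axon markers moved beside Tubb3, from 4.34 and 4.58 scaled FPKM in the uncrushed Schwann cell libraries to 21.5 and 28.1 at day 3, most of it from Uchl1. Of the 4 such markers tested in Schwann cells at day 3, Uchl1 was higher and Syp was lower, and their median log2 fold change was -1.25. At day 3, 5 of the 10 markers, Snap25, Rbfox3 and Elavl3 among them, were at the floor. Tubb2a was at 7.45 to 16.9 scaled FPKM over the Schwann cell libraries and passed in no Schwann cell comparison with uncrushed cells. Tubb2a in whole nerve lay at 20.2 and 21.7 scaled FPKM in the 2 uncrushed whole nerve libraries, then 20.1 and 13.6 (day 3), 13.8 and 14.7 (day 5) and 13.6 and 12.8 (day 7), and was lower at a log2 fold change of -0.76 ± 0.18 (SE, edgeR adjusted p = 0.00877) at day 7. Its call at day 5 there was lost without single libraries. Tubb2a at day 5 in whole nerve was at log2 fold changes of -0.71 to -0.59 (edgeR adjusted p = 0.0511 to 0.0904) without uncrushed replicate 2, day 5 replicate 1 or day 5 replicate 2.

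Summed over its genes, alpha tubulin in uncrushed Schwann cells stood at 1460 ± 60.1 scaled FPKM (SD, n = 2). After crush it stood at 2518 ± 6.36 (day 3), 2361 ± 19.8 (day 5) and 1772 ± 116 (day 7). Whole nerve had 2726 ± 17.7 scaled FPKM of alpha tubulin before crush, then 2828 ± 94.8 (day 3), 2220 ± 91.2 (day 5) and 1568 ± 17.7 (day 7). Summed beta tubulin in Schwann cells went from 256.5 ± 5.37 to 607.7 ± 25.0 scaled FPKM at day 3, and in whole nerve from 293.1 ± 17.6 to 595.2 ± 21.6. Alpha tubulin was thus higher at day 3 in Schwann cells by more than the spread between libraries, and in whole nerve its day 3 and uncrushed values differed by about the spread. With FPKM as deposited, the log2 ratio of whole nerve alpha tubulin over uncrushed turned from -0.296 to 0.009 at day 5, went from 0.053 to 0.394 at day 3 and from -0.799 to -0.485 at day 7. For beta tubulin there the day 7 ratio went from 0.192 to 0.506. Beta tubulin was higher at day 3 in both tissues by more than that spread.

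**Figure D2:**
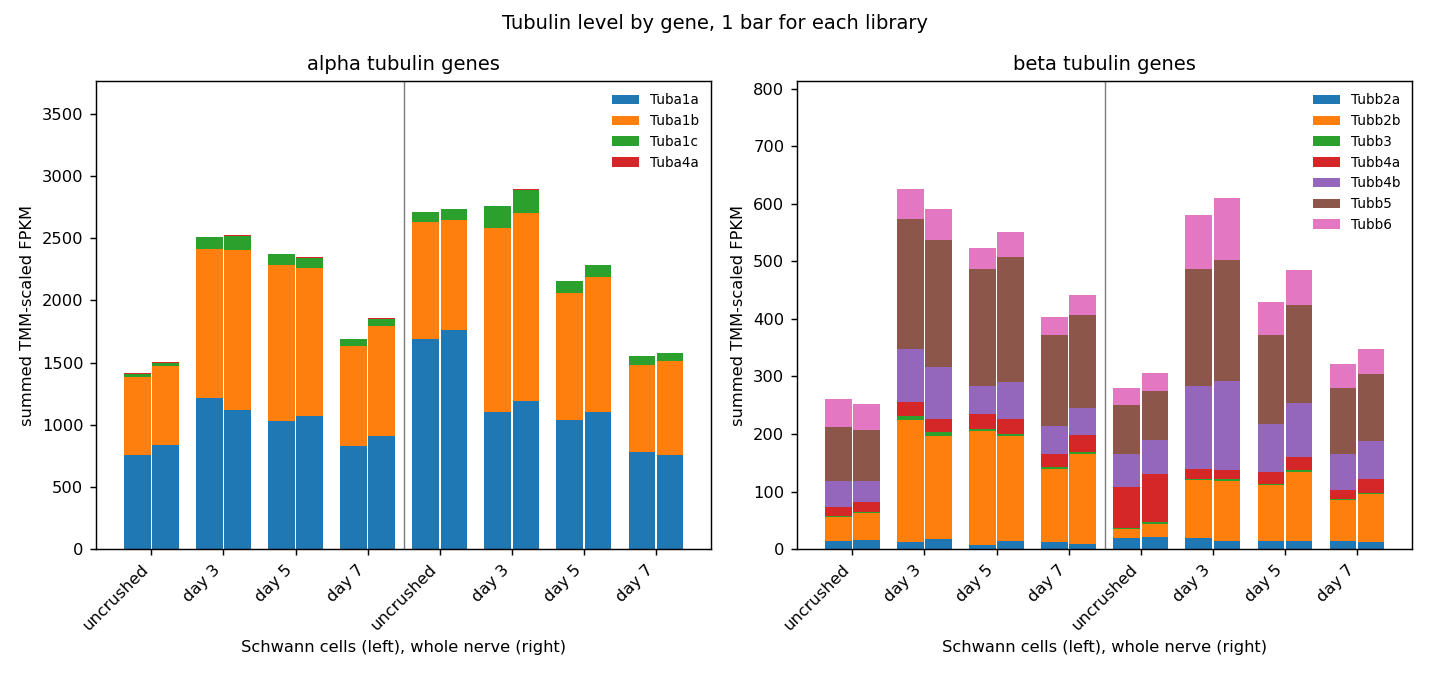
Each bar is 1 library and its height is the summed level in scaled FPKM of the alpha (left) or beta (right) tubulin genes, with segments for the single genes. Summed beta tubulin rose from a mean of 256.5 to 607.7 in Schwann cells at day 3, and the Tubb4a segment shrank in crushed whole nerve.

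Shares of single genes within each family do not depend on scaling between libraries, and none of their differences passed the test after adjustment. In Schwann cells Tubb2b went from 17.5% of summed beta tubulin in uncrushed libraries to 33.8% in the 6 crushed ones, while Tubb6 went from 18.1% to 7.92%. In whole nerve Tubb4a went from 26% to 4.44% of beta tubulin and Tubb2b from 6.42% to 21.3%. Among the alpha tubulins Tuba1a went from 54.5% to 46.6% in Schwann cells and from 63.4% to 46% in whole nerve, and Tuba1b from 43.2% to 49.5% and from 33.3% to 48.8%. For each of these shares the exact two-sided permutation p over 2 uncrushed and 6 crushed libraries was 0.0357, the smallest that 28 arrangements can give, and after Benjamini-Hochberg adjustment over 30 shares it was 0.0669, so none passed 0.05. Shares of Tuba1a, Tuba1b and Tuba1c depend on how RSEM divided their common reads, and taken as 1 gene their share of alpha tubulin differed after crush by 0.455 percentage points in Schwann cells and by -0.075 in whole nerve.

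Of the gamma tubulins, Tubg1 was higher after crush in both tissues. Tubg1, the main gamma tubulin of the centrosome, lay at 3.51 and 3.89 scaled FPKM in the 2 uncrushed Schwann cell libraries, then 11 and 9.12 (day 3), 8.92 and 11.2 (day 5) and 8.62 and 10.3 (day 7). It had a log2 fold change of 1.47 ± 0.19 (SE, edgeR adjusted p = 0.000148) at day 3 and 1.36 ± 0.19 (SE, edgeR adjusted p = 0.000345) at day 7, with the 6 crushed libraries above both uncrushed ones. In whole nerve Tubg1 was at 4.36 and 4.79 scaled FPKM before crush and 10.2 and 9.35 at day 3, a log2 fold change of 1.04 ± 0.16 (SE, edgeR adjusted p = 0.000359). Its calls at days 5 and 7 were lost without single libraries. Tubg1 at day 5 in whole nerve was at log2 fold changes of 0.48 to 0.57 (edgeR adjusted p = 0.059 to 0.107) without uncrushed replicate 1, day 5 replicate 1 or day 5 replicate 2. Tubg1 at day 7 in whole nerve was at log2 fold changes of 0.41 to 0.55 (edgeR adjusted p = 0.072 to 0.184) without uncrushed replicate 1, uncrushed replicate 2, day 7 replicate 1 or day 7 replicate 2. Tubg2 had few counts. The uncrushed Schwann cell libraries held 2 Tubg2 counts together and the day 3 libraries 27, a ratio of 8.44 with an exact 95% interval of 2.12 to 73.2 that covers counting error only. The Tubg2 calls at day 3 and day 5 were lost without single libraries. Tubg2 at day 3 in Schwann cells was at log2 fold changes of 2.00 to 3.24 (edgeR adjusted p = 0.0553 to 0.144) without uncrushed replicate 1, day 3 replicate 1 or day 3 replicate 2. Tubg2 at day 5 in Schwann cells was at log2 fold changes of 1.89 to 2.98 (edgeR adjusted p = 0.0777 to 0.165) without uncrushed replicate 1, day 5 replicate 1 or day 5 replicate 2.

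The stathmins moved apart. Stmn1, the founding stathmin, high in dividing and immature cells, lay at 308 and 375 scaled FPKM in the 2 uncrushed Schwann cell libraries, then 666 and 706 (day 3), 639 and 721 (day 5) and 622 and 482 (day 7). Every crushed Schwann cell library was above both uncrushed ones, and the rise had a log2 fold change of 1.03 ± 0.14 (SE, edgeR adjusted p = 0.000233) at day 3, 1.00 at day 5 and 0.70 ± 0.14 (SE, edgeR adjusted p = 0.00296) at day 7. In whole nerve Stmn1 lay at 490.1 and 503 scaled FPKM in the 2 uncrushed whole nerve libraries, then 583 and 621 (day 3), 465 and 466 (day 5) and 392 and 343 (day 7), and its day 7 value was lower, a log2 fold change of -0.53 ± 0.09 (SE, edgeR adjusted p = 0.00133). Stmn4, a membrane-bound stathmin of neurons, was at 1.96 and 0.751 scaled FPKM in uncrushed Schwann cells and 6.77 and 7.03 at day 3, a log2 fold change of 2.27 ± 0.42 (SE, edgeR adjusted p = 0.00142), and at days 5 and 7 it stood at 2.39 and 1.91 and 2 and 3.64, without passing the test.

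Stmn2, known as SCG10 and a marker of growing axons, was mainly a gene of whole nerve. It lay at 8.37 and 7.64 scaled FPKM in the 2 uncrushed whole nerve libraries, then 1.69 and 2.99 (day 3), 1.57 and 2.02 (day 5) and 3.64 and 5.93 (day 7). The fall had a log2 fold change of -1.84 ± 0.31 (SE, edgeR adjusted p = 0.000722) at day 3, and at day 7 the values overlapped neither the uncrushed nor the day 5 range but did not pass against uncrushed nerve. Schwann cells held 1.16 and 1.19 scaled FPKM of Stmn2 before crush and 0.0579 and 0.104 at day 5, which were 53 counts and 5 counts in all, a ratio of 14.4 with an exact 95% counting interval of 5.82 to 46.3. The Stmn2 calls in Schwann cells at days 3 and 7 were lost without single libraries. Stmn2 at day 3 in Schwann cells was at log2 fold changes of -2.12 to -1.59 (edgeR adjusted p = 0.0543 to 0.101) without uncrushed replicate 1, uncrushed replicate 2 or day 3 replicate 2. Stmn2 at day 7 in Schwann cells was at a log2 fold change of -2.30 without day 7 replicate 1 (edgeR adjusted p = 0.064). Stmn3, a second neuronal stathmin, lay at 3.16 and 2.93 scaled FPKM in the 2 uncrushed whole nerve libraries, then 0.244 and 0.541 (day 3), 0.297 and 0.197 (day 5) and 0.345 and 1.18 (day 7). This was a fall with a log2 fold change of -2.98 ± 0.63 (SE, edgeR adjusted p = 0.00309) at day 3, and its day 7 call was lost without single libraries. Stmn3 at day 7 in whole nerve was at log2 fold changes of -2.13 to -1.43 (edgeR adjusted p = 0.0713 to 0.161) without uncrushed replicate 1, uncrushed replicate 2 or day 7 replicate 1. Of 6 neuron and axon markers tested in whole nerve at day 3, Snap25 was lower, at a mean of 1.2 against 2.75 scaled FPKM, Uchl1 was higher and the other 4 did not pass. The sum of all 10 markers went from 16 to 17.6 scaled FPKM in uncrushed nerve to 24.4 to 24.8 at day 3, and the part of these markers in the stathmin values was not tested.

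Among the structural microtubule-associated proteins, 6 of 9 were higher and none lower in Schwann cells at day 3, where 26.9% and 25.7% of all genes were. In whole nerve 2 of 9 were higher and 2 lower, near the 23.1% and 22.5% of all genes. Map2, a spacer protein of dendrites, rose in both tissues. It lay at 8.83 and 8.73 scaled FPKM in the 2 uncrushed Schwann cell libraries, then 29.8 and 27.6 (day 3), 26.1 and 32.8 (day 5) and 35.8 and 43.4 (day 7). The Schwann cell rise had a log2 fold change of 1.64 ± 0.14 (SE, edgeR adjusted p = 7.23e-06) at day 3 and 2.09 ± 0.14 (SE, edgeR adjusted p = 3.06e-06) at day 7. In whole nerve Map2 lay at 3.11 and 3.53 scaled FPKM in the 2 uncrushed whole nerve libraries, then 18.5 and 16.4 (day 3), 23 and 25.7 (day 5) and 18.9 and 18.5 (day 7), without overlap between crushed and uncrushed nerves, a rise with a log2 fold change of 2.28 ± 0.11 (SE, edgeR adjusted p = 1.06e-07) at day 3 and 2.73 ± 0.11 (SE, edgeR adjusted p = 5.36e-08) at day 5. Map2 was the member with the highest day 5 log2 fold change in whole nerve.

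Map1b, an early marker of outgrowing axons that Schwann cells also express, lay at 142 and 122 scaled FPKM in the 2 uncrushed Schwann cell libraries, then 309 and 341 (day 3), 225 and 219.7 (day 5) and 166 and 192 (day 7). The rise had a log2 fold change of 1.33 ± 0.12 (SE, edgeR adjusted p = 1.06e-05) at day 3 and 0.78 ± 0.12 (SE, edgeR adjusted p = 0.000378) at day 5, and the day 7 call was lost without 1 library. Map1b at day 7 in Schwann cells was at a log2 fold change of 0.35 without day 7 replicate 2 (edgeR adjusted p = 0.056). In whole nerve it lay at 171 and 180.5 scaled FPKM in the 2 uncrushed whole nerve libraries, then 176 and 182 (day 3), 129 and 146 (day 5) and 93.7 and 113 (day 7), and Map1b was lower with a log2 fold change of -0.86 ± 0.11 (SE, edgeR adjusted p = 0.000175) at day 7. Map1a, its relative of mature neurons, was at 12.9 and 12.2 scaled FPKM in uncrushed Schwann cells and 34.4 and 42 at day 3, a log2 fold change of 1.64 ± 0.11 (SE, edgeR adjusted p = 2.17e-06). Whole nerve had 9.39 and 10.5 and 18.2 and 18.3 scaled FPKM of Map1a, a log2 fold change of 0.79 ± 0.12 (SE, edgeR adjusted p = 0.000395). Both genes were thus highest at day 3 in Schwann cells, and in whole nerve the rise of Map1a passed and the day 3 change of Map1b did not.

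Map4, the microtubule-associated protein found in most non-neuronal cells, did not pass in Schwann cells, where it lay at 222 and 191 scaled FPKM in the 2 uncrushed Schwann cell libraries, then 234 and 228 (day 3), 206 and 195 (day 5) and 209.5 and 238 (day 7), with day 5 and day 7 values that overlapped the uncrushed ones. In whole nerve Map4 lay at 291 and 306 scaled FPKM in the 2 uncrushed whole nerve libraries, then 181 and 192 (day 3), 173 and 181 (day 5) and 175 and 208 (day 7). This was a fall with a log2 fold change of -0.74 ± 0.098 (SE, edgeR adjusted p = 0.000148) at day 3. Map9, a protein of the spindle and of cilia, was at 9.38 and 7.57 scaled FPKM in uncrushed nerve and 3.63 and 4.26 at day 3, a log2 fold change of -1.16 ± 0.13 (SE, edgeR adjusted p = 4.72e-05). In Schwann cells Map9 stood at 3.84 and 2.85 before crush and 4.32 and 4.32 at day 3, and its calls there were lost without single libraries. Map9 at day 3 in Schwann cells was at log2 fold changes of 0.32 to 0.49 (edgeR adjusted p = 0.0923 to 0.179) without uncrushed replicate 2, day 3 replicate 1 or day 3 replicate 2. Map9 at day 7 in Schwann cells was at a log2 fold change of 0.43 without uncrushed replicate 2 (edgeR adjusted p = 0.0918) and of 0.39 without day 7 replicate 2 (edgeR adjusted p = 0.106).

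Map6, which protects microtubules from cold, was at 2.22 and 2.28 scaled FPKM in uncrushed Schwann cells and 3.18 and 3.58 at day 3, a log2 fold change of 0.62 ± 0.16 (SE, edgeR adjusted p = 0.00758), a call that was lost without 1 library. Map6 at day 3 in Schwann cells was at a log2 fold change of 0.54 without day 3 replicate 2 (edgeR adjusted p = 0.064). Map7, which recruits kinesin, had 6 counts in uncrushed Schwann cells and 58 at day 3, a ratio of 6.04 with an exact 95% counting interval of 2.62 to 17.1, and its call was lost without single libraries. Map7 at day 3 in Schwann cells was at a log2 fold change of 1.81 without uncrushed replicate 2 (edgeR adjusted p = 0.12) and of 1.53 without day 3 replicate 2 (edgeR adjusted p = 0.208). Mapt, which encodes tau of the axon, lay at 0.985 and 1.44 scaled FPKM in the 2 uncrushed Schwann cell libraries, then 1.19 and 1.17 (day 3), 0.81 and 0.923 (day 5) and 1.07 and 0.75 (day 7), and at 0.598 and 0.548 scaled FPKM in the 2 uncrushed whole nerve libraries, then 0.449 and 0.522 (day 3), 0.356 and 0.522 (day 5) and 0.671 and 0.653 (day 7), and passed in no comparison with uncrushed samples. Map1s, a relative of Map1a and Map1b found in most tissues, also passed in none, with levels of 1.32 to 2.61 scaled FPKM over the Schwann cell libraries and 1.58 to 2.62 over the whole nerve libraries.

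**Figure D3:**
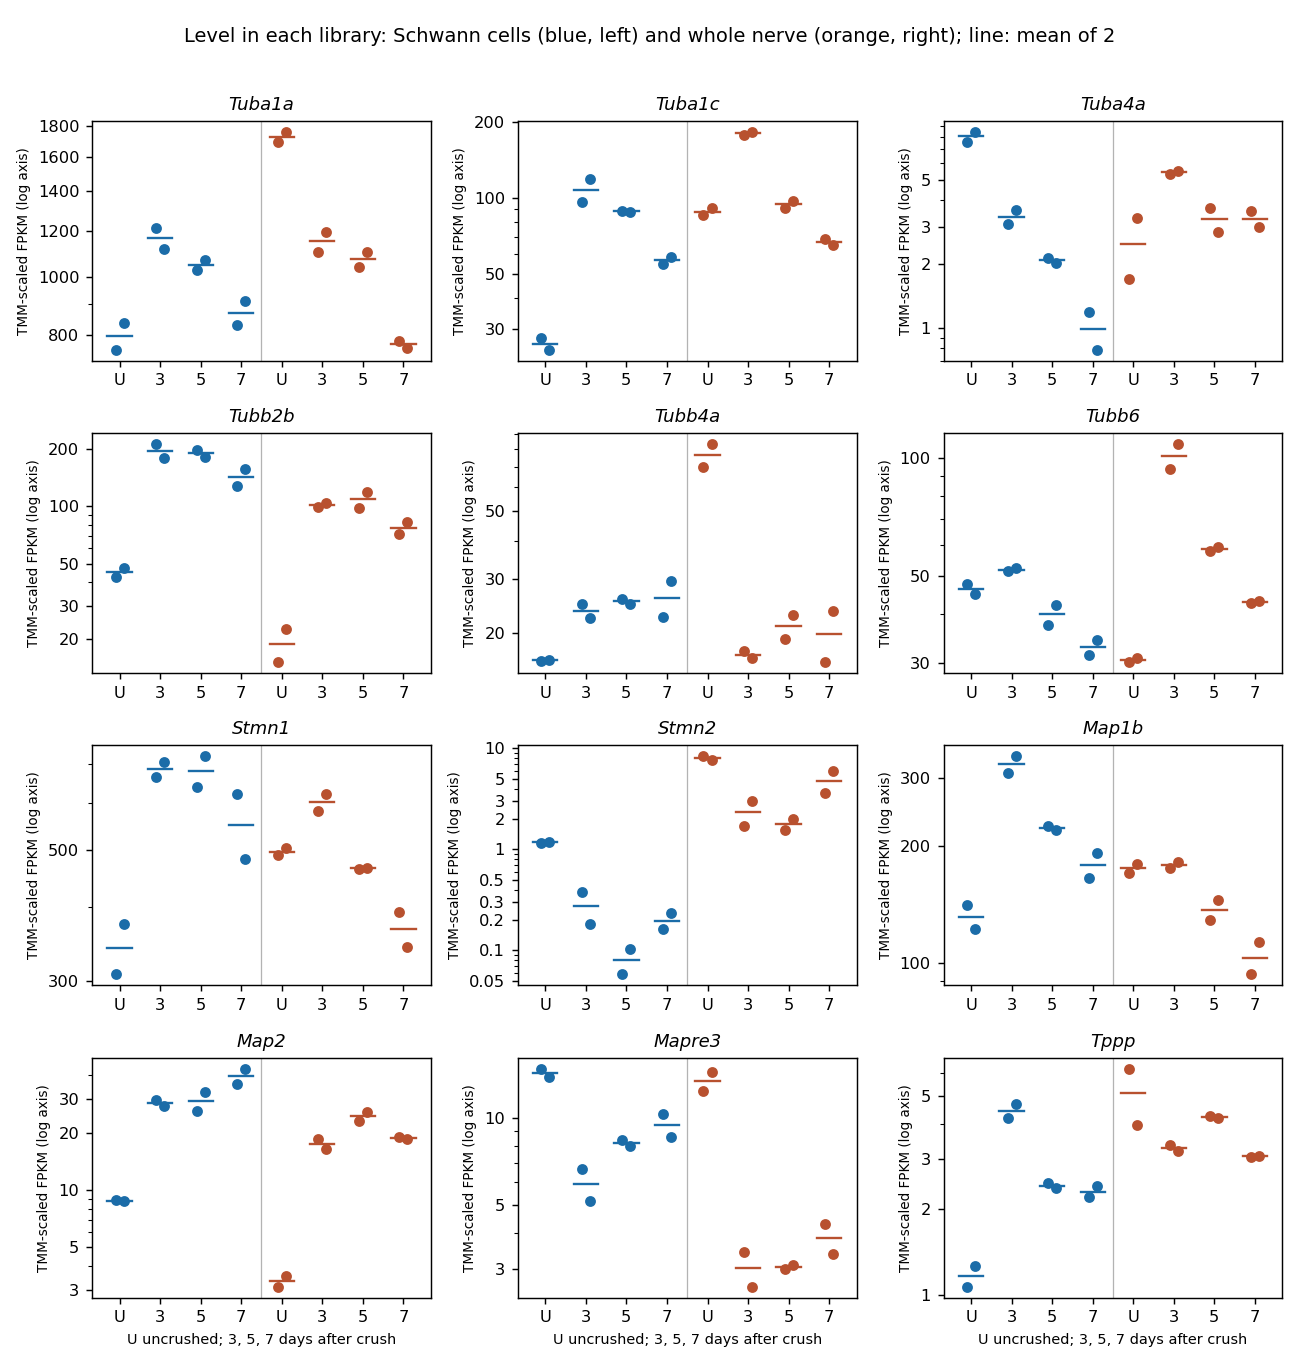
Points are the scaled FPKM (log axis) of 12 members in each library, Schwann cells on the left and whole nerve on the right of each panel, and lines are means of 2 libraries. Tubb2b and Map2 rose in both tissues, Tubb4a fell in whole nerve from 69.7 and 83.2 to 16.5 to 17.4 at day 3, and Tuba4a fell in Schwann cells.

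The plus-end proteins were split by gene. Mapre3, the end-binding protein EB3 of neurons and muscle, lay at 14.8 and 13.8 scaled FPKM in the 2 uncrushed Schwann cell libraries, then 6.67 and 5.13 (day 3), 8.41 and 7.99 (day 5) and 10.3 and 8.58 (day 7). The fall had a log2 fold change of -1.25 ± 0.17 (SE, edgeR adjusted p = 0.000166) at day 3, followed by less negative values of -0.80 at day 5 and -0.57 at day 7, the last of which was not called without single libraries. Mapre3 at day 7 in Schwann cells was at a log2 fold change of -0.53 without uncrushed replicate 1 (edgeR adjusted p = 0.062) and of -0.44 without day 7 replicate 2 (edgeR adjusted p = 0.111). In whole nerve Mapre3 lay at 12.4 and 14.4 scaled FPKM in the 2 uncrushed whole nerve libraries, then 3.42 and 2.59 (day 3), 3 and 3.08 (day 5) and 4.3 and 3.38 (day 7), without overlap, a fall with a log2 fold change of -2.20 ± 0.20 (SE, edgeR adjusted p = 1.07e-05) at day 3. Mapre2 (EB2) lay at 38.1 and 35.3 scaled FPKM in the 2 uncrushed Schwann cell libraries, then 26.3 and 22.6 (day 3), 19.6 and 19.4 (day 5) and 19 and 17.2 (day 7). This was a fall with a log2 fold change of -0.56 ± 0.11 (SE, edgeR adjusted p = 0.00201) at day 3 and -0.89 ± 0.11 (SE, edgeR adjusted p = 0.000118) at day 5. Whole nerve held 35.5 to 40.2 scaled FPKM of Mapre2 in all 8 libraries, and no day passed. Mapre1 (EB1), the general end-binding protein, was higher, with 71.2 and 61.7 scaled FPKM in uncrushed Schwann cells and 86.2 and 86.9 at day 3, a log2 fold change of 0.41 ± 0.097 (SE, edgeR adjusted p = 0.00571). Whole nerve had 53.7 and 50.6 and, at day 3, 88.5 and 92 scaled FPKM of Mapre1, a log2 fold change of 0.71 ± 0.083 (SE, edgeR adjusted p = 6.14e-05).

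Clasp2, which stabilizes growing ends, was at 29.1 and 33 scaled FPKM in uncrushed nerve and 18.1 and 17.4 at day 3, a log2 fold change of -0.87 ± 0.11 (SE, edgeR adjusted p = 9.07e-05). In Schwann cells it stood at 43 and 39.9 and 33 and 32.5, a call that was lost without single libraries. Clasp2 at day 3 in Schwann cells was at log2 fold changes of -0.30 to -0.19 (edgeR adjusted p = 0.102 to 0.197) without uncrushed replicate 1, day 3 replicate 1 or day 3 replicate 2. Its relative Clasp1 was higher at day 3 in Schwann cells, with 12 and 11.2 scaled FPKM before crush and 16 and 15.4 at day 3, a log2 fold change of 0.47 ± 0.095 (SE, edgeR adjusted p = 0.00246), while in whole nerve the call at day 3 was lost without single libraries. Clasp1 at day 3 in whole nerve was at log2 fold changes of 0.32 to 0.45 (edgeR adjusted p = 0.0674 to 0.175) without uncrushed replicate 1, uncrushed replicate 2 or day 3 replicate 2. The linker proteins Clip1 and Clip2 passed at no day in Schwann cells. In whole nerve Clip1 was at 19.6 and 17.8 scaled FPKM before crush and 14.5 and 14.8 at day 5, a log2 fold change of -0.45 ± 0.092 (SE, edgeR adjusted p = 0.00345), and Clip2 had 4.93 and 4.42 and 3.55 and 2.83 with a call at day 5 that was lost without 1 library. Clip2 at day 5 in whole nerve was at a log2 fold change of -0.49 without day 5 replicate 2 (edgeR adjusted p = 0.0671).

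Tppp, which promotes tubulin polymerization and is abundant in myelinating glia of the brain, lay at 1.07 and 1.26 scaled FPKM in the 2 uncrushed Schwann cell libraries, then 4.18 and 4.68 (day 3), 2.47 and 2.38 (day 5) and 2.21 and 2.41 (day 7). The rise had a log2 fold change of 1.94 ± 0.16 (SE, edgeR adjusted p = 5.71e-06) at day 3, with all crushed libraries above the uncrushed ones. In whole nerve Tppp lay at 6.25 and 3.97 scaled FPKM in the 2 uncrushed whole nerve libraries, then 3.37 and 3.22 (day 3), 4.25 and 4.17 (day 5) and 3.06 and 3.09 (day 7), and its calls at days 3 and 7 were lost without single libraries. Tppp at day 3 in whole nerve was at a log2 fold change of -0.33 without uncrushed replicate 1 (edgeR adjusted p = 0.133) and of -0.68 without day 3 replicate 2 (edgeR adjusted p = 0.0622). Tppp at day 7 in whole nerve was at a log2 fold change of -0.46 without uncrushed replicate 1 (edgeR adjusted p = 0.0676). Tppp3 was the more abundant gene. It lay at 43.3 and 36.2 scaled FPKM in the 2 uncrushed Schwann cell libraries, then 76.4 and 64 (day 3), 52.8 and 48 (day 5) and 32.9 and 38.6 (day 7). This was a rise with a log2 fold change of 0.84 ± 0.14 (SE, edgeR adjusted p = 0.000796) at day 3, while days 5 and 7 did not pass. In whole nerve Tppp3 lay at 75.5 and 57.7 scaled FPKM in the 2 uncrushed whole nerve libraries, then 40.4 and 41.7 (day 3), 52.9 and 41.2 (day 5) and 44.7 and 47.4 (day 7). This was a fall with a log2 fold change of -0.77 ± 0.14 (SE, edgeR adjusted p = 0.00158) at day 3.

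Of the doublecortin family, Dclk1 was found in all libraries and Dcx mainly in whole nerve. Dclk1, a kinase with doublecortin domains, lay at 109 and 126 scaled FPKM in the 2 uncrushed Schwann cell libraries, then 342 and 328 (day 3), 279 and 269.6 (day 5) and 262 and 273 (day 7). The rise had a log2 fold change of 1.50 ± 0.10 (SE, edgeR adjusted p = 2.28e-06) at day 3 and 1.17 ± 0.10 (SE, edgeR adjusted p = 1.8e-05) at day 7, and crushed and uncrushed libraries did not overlap. Dclk1 in whole nerve lay at 59.1 and 55.2 scaled FPKM in the 2 uncrushed whole nerve libraries, then 174 and 166 (day 3), 162 and 189 (day 5) and 112 and 126 (day 7). This was a rise with a log2 fold change of 1.41 ± 0.10 (SE, edgeR adjusted p = 2.01e-06) at day 3. Dcx itself, known from migrating neurons, had 15 counts in the uncrushed Schwann cell libraries, 6 at day 3, 0 at day 5 and 1 at day 7. In whole nerve it lay at 3.85 and 2.85 scaled FPKM in the 2 uncrushed whole nerve libraries, then 1.22 and 0.693 (day 3), 1.34 and 1.65 (day 5) and 2.17 and 1.19 (day 7). This was a fall with a log2 fold change of -1.89 ± 0.32 (SE, edgeR adjusted p = 0.000745) at day 3, and its later calls were lost without single libraries. Dcx at day 5 in whole nerve was at a log2 fold change of -1.01 without uncrushed replicate 1 (edgeR adjusted p = 0.0594) and of -1.11 without day 5 replicate 1 (edgeR adjusted p = 0.0729). Dcx at day 7 in whole nerve was at a log2 fold change of -0.84 without uncrushed replicate 1 (edgeR adjusted p = 0.129) and of -0.71 without day 7 replicate 2 (edgeR adjusted p = 0.132). Against day 5 whole nerve, where Dcx had 437 counts, Schwann cells with 0 counts were at least 161-fold lower, computed against 3 counts over the group.

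From day 3 to day 7 the members tended downward. In Schwann cells 2 of 35 were higher and 17 lower at day 7 than at day 3. Of all genes, 10.2% were higher and 10.7% lower, and the members' median log2 fold change was -0.44 against 0.01. All 4 tested alpha tubulins and 5 of 7 beta tubulins were among the lower ones, with log2 fold changes of -1.78 for Tuba4a, -1.24 for Tubb3 and -0.94 for Tuba1c. Tuba1b had a log2 fold change of -0.57 ± 0.097 (SE, edgeR adjusted p = 0.00283). The calls of Tuba1a and Tubb2b were lost without single libraries. Tuba1a in Schwann cells was at log2 fold changes of -0.49 to -0.36 (edgeR adjusted p = 0.0596 to 0.136) without day 3 replicate 1, day 3 replicate 2 or day 7 replicate 1. Tubb2b in Schwann cells was at log2 fold changes of -0.59 to -0.32 (edgeR adjusted p = 0.0541 to 0.224) without day 3 replicate 1, day 3 replicate 2 or day 7 replicate 1. The 2 higher members were Mapre3 and Map2, and both calls were lost without single libraries. Mapre3 in Schwann cells was at a log2 fold change of 0.49 without day 3 replicate 2 (edgeR adjusted p = 0.147) and of 0.55 without day 7 replicate 1 (edgeR adjusted p = 0.127). Map2 in Schwann cells was at log2 fold changes of 0.30 to 0.51 (edgeR adjusted p = 0.101 to 0.218) without day 3 replicate 1, day 3 replicate 2 or day 7 replicate 2. Without 1 library the number of lower members was 11 to 14 and that of higher members 0 to 1. In whole nerve 1 of 36 was higher (9.85% of all genes) and 11 lower (11.4%), with a median of -0.26 against 0.00. The lower members included Tuba1c at a log2 fold change of -1.46 ± 0.087 (SE, edgeR adjusted p = 4.42e-06), Tubb6 at -1.27 ± 0.096 (SE, edgeR adjusted p = 1.8e-05) and Tubb4b at -1.24 ± 0.094 (SE, edgeR adjusted p = 1.81e-05). The higher member was Stmn2 at a log2 fold change of 1.00, a call that was lost without single libraries. Stmn2 in whole nerve was at a log2 fold change of 0.64 without day 3 replicate 1 (edgeR adjusted p = 0.256) and of 0.60 without day 7 replicate 2 (edgeR adjusted p = 0.278). Summed markers of dividing cells moved the same way, from 542 and 547 scaled FPKM at day 3 to 344 and 353 at day 7 in Schwann cells and from 567 and 591 to 193 and 197 in whole nerve, and their part was not tested.

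The change after crush was compared directly between the tissues in a fit of all 16 libraries, as the difference of the Schwann cell and whole nerve log2 fold changes. At day 3 the difference was positive for 15 of 37 members and negative for 5, where 12.3% of all genes were positive and 13.7% negative. At day 5 it was positive for 12 and negative for 4 (12.6% and 14.9%), and at day 7 also for 12 and 4 (11.6% and 14.4%). The members' median difference was 0.33, 0.23 and 0.37 at the 3 days, against -0.04 over all genes at day 3. Among the members that passed, the largest positive log2 difference at day 3 was that of Tubb4a, 2.70 ± 0.24 (SE, edgeR adjusted p = 1.96e-06), followed by Tppp with 2.55 ± 0.25 (SE, edgeR adjusted p = 4.67e-06) and, resting on few counts, Map7. Next were the log2 differences of Tubb3 with 1.55 ± 0.37 (SE, edgeR adjusted p = 0.00593), Map9 with 1.54 ± 0.22 (SE, edgeR adjusted p = 0.000109) and Tppp3 with 1.50 ± 0.22 (SE, edgeR adjusted p = 0.000157). Map1b with 1.27 ± 0.17 (SE, edgeR adjusted p = 5.85e-05) and Tuba1a with 1.13 ± 0.13 (SE, edgeR adjusted p = 2.21e-05) on the same log2 scale followed. Negative log2 differences were those of Tuba4a, -2.37 ± 0.38 (SE, edgeR adjusted p = 0.000387), Tubb6, -1.57 ± 0.14 (SE, edgeR adjusted p = 1.44e-06), and Map2, -0.74 ± 0.18 (SE, edgeR adjusted p = 0.0076). Mapre2 and Mapre1 also had negative differences, which were lost without single libraries. Mapre2 at day 3 was at a log2 difference of -0.41 without day 3 Schwann cells replicate 2 (edgeR adjusted p = 0.0674). Mapre1 at day 3 was at log2 differences of -0.44 to -0.29 (edgeR adjusted p = 0.0518 to 0.109) without uncrushed Schwann cells replicate 1, uncrushed whole nerve replicate 1, uncrushed whole nerve replicate 2, day 3 Schwann cells replicate 1, day 3 Schwann cells replicate 2, day 3 whole nerve replicate 1 or day 3 whole nerve replicate 2.

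Of the 34 members tested in both tissues, 11 were higher at day 3 in both, which is 11 of the 22 higher ones in Schwann cells and 11 of the 13 in whole nerve, and 3 were lower in both. Of the 14030 genes tested in both tissues, 14.2% were higher in both, which is 50% of those higher in Schwann cells and 61.5% of those higher in whole nerve, and 12.8% were lower in both. Map9, Tppp, Tppp3, Tuba1a and Tubb4a were higher in Schwann cells and lower in whole nerve, and Tuba4a was lower in Schwann cells and higher in whole nerve. Of all genes, 2.02% and 1.68% were called in these opposite directions. As given above, the day 3 calls of Map9 and Tubb4a in Schwann cells and of Tppp and Tuba4a in whole nerve were lost without single libraries. The difference did not pass for Tubb2b, Tubb5, Tubb4b and Dclk1, whose day 3 log2 fold changes were 2.15, 1.31, 1.22 and 1.50 in Schwann cells and 2.38, 1.22, 1.26 and 1.41 in whole nerve. Their log2 differences were -0.32 (95% interval -0.84 to 0.19) for Tubb2b, -0.02 (95% interval -0.28 to 0.23) for Tubb5, -0.15 (95% interval -0.52 to 0.22) for Tubb4b and -0.01 (95% interval -0.32 to 0.31) for Dclk1, which bounds how far apart the tissues could be.

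**Figure D4:**
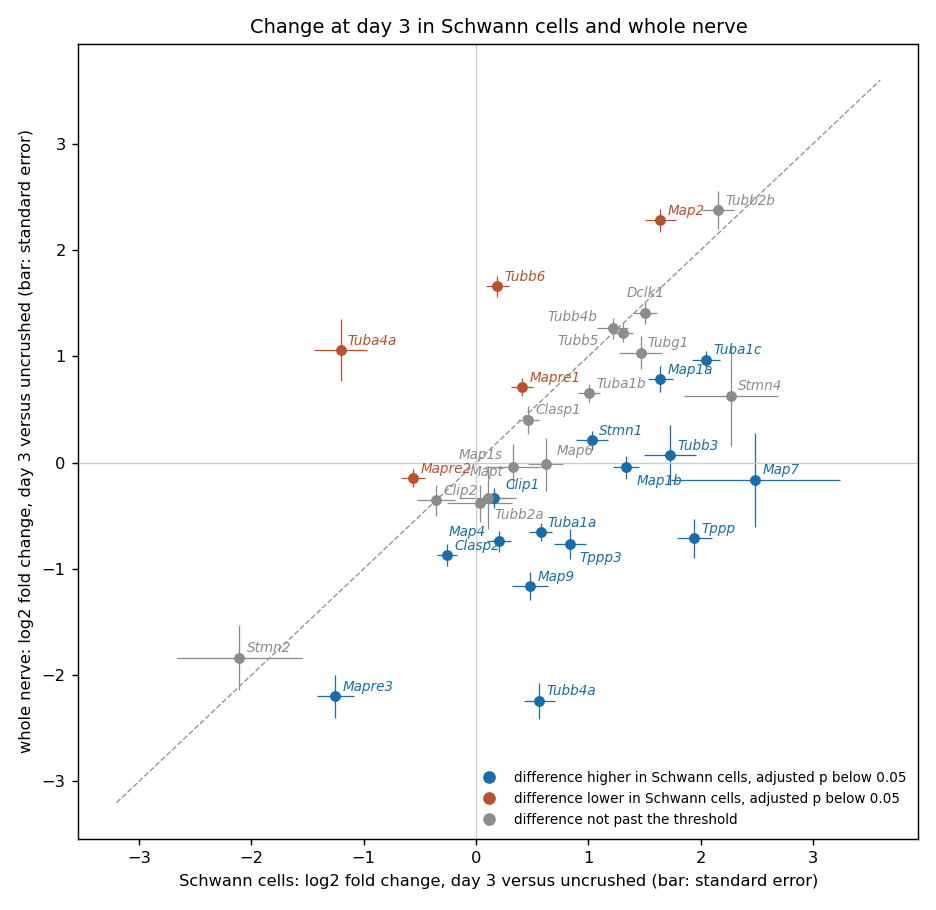
Each point is a member tested in both tissues, with its day 3 log2 fold change in Schwann cells (horizontal) and whole nerve (vertical), bars giving the standard error and the dashed line equal change. Tubb4a lies at 0.57 and -2.24 and Tuba4a at -1.21 and 1.06, while Tubb2b, Dclk1 and Tubb5 lie near the line.

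Uncrushed Schwann cells and uncrushed whole nerve were compared in the same fit. Of 37 members, 11 were higher and 17 lower in Schwann cells, where 29.1% of all genes were higher and 35.3% lower. Lower members were led by Dcx, with 15 counts against 644 in whole nerve and a log2 fold change of -5.69 ± 0.53 (SE, edgeR adjusted p = 6.71e-07). Stmn3, also a gene of neurons, was lower at a log2 fold change of -3.15 ± 0.74 (SE, edgeR adjusted p = 0.00189). Stmn2, another gene of neurons, was lower at a log2 fold change of -2.76 ± 0.36 (SE, edgeR adjusted p = 1.09e-05). Mapt, likewise best known from neurons, was higher in Schwann cells, at a mean of 1.21 against 0.573 scaled FPKM, and Tubb3 did not pass. Tubb4a had a log2 fold change of -2.23 ± 0.18 (SE, edgeR adjusted p = 6.75e-08) and Tppp -2.14 ± 0.19 (SE, edgeR adjusted p = 2.25e-07). Tuba1c and Tuba1a were also lower, with log2 fold changes of -1.74 and -1.12. Higher members included Tuba4a at a log2 fold change of 1.70 ± 0.28 (SE, edgeR adjusted p = 0.000117), Map2 at 1.48 ± 0.14 (SE, edgeR adjusted p = 3.43e-07), Tubb2b at 1.26 ± 0.18 (SE, edgeR adjusted p = 2.46e-05) and Dclk1 at 0.99 ± 0.10 (SE, edgeR adjusted p = 1.4e-06). Map7 had 6 counts in Schwann cells and 50 in whole nerve, a ratio of 10.5 with an exact 95% counting interval of 4.51 to 30.

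After crush the balance turned. At day 3, Schwann cells exceeded whole nerve in 17 members and were below it in 9 (24.5% and 32.8% of all genes), at day 5 14 and 7 (23.2% and 28.4%) and at day 7 13 and 8 (22.4% and 28.7%). Tubb2b and Dclk1 stayed higher in Schwann cells, with log2 differences of 0.94 and 0.98 at day 3 and 0.89 and 1.16 at day 7. Tubb6 was higher in Schwann cells before crush, with a log2 difference of 0.60, and lower after it, with -0.97 ± 0.095 (SE, edgeR adjusted p = 7.05e-07) at day 3. Map1b went from a log2 difference of -0.41, a call that was lost without 1 library, to 0.86 ± 0.12 (SE, edgeR adjusted p = 2.08e-05). Map1b was at a log2 difference of -0.31 without uncrushed Schwann cells replicate 2 (edgeR adjusted p = 0.0613). Macrophage markers, at 2.43 to 12.6 scaled FPKM in Schwann cells, summed to 145 to 162 scaled FPKM in uncrushed nerve and 512 to 521 at day 3, beside the Tubb6 values, and their part was not tested.

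Other genes of the microtubule system were counted in 7 lists, to be read against the 26.9% of all genes that were higher and 25.7% lower at day 3 in Schwann cells and the 23.1% and 22.5% in whole nerve. Transport motors divided by tissue: of 35 kinesin and dynein genes tested in Schwann cells 18 were higher and 3 lower at day 3, and of 36 in whole nerve 2 were higher and 16 lower. Their difference between tissues was positive for 17 of 36 and negative for 1, where 12.3% of all genes were positive and 13.7% negative. Kif5c, a kinesin heavy chain of neurons, had the largest Schwann cell change, a log2 fold change of 1.59 ± 0.19 (SE, edgeR adjusted p = 9.98e-05), and was at -2.11 ± 0.17 (SE, edgeR adjusted p = 4.9e-06) in whole nerve. Kif1a, which carries synaptic vesicle precursors, had the smallest, a log2 fold change of -1.41 ± 0.096 (SE, edgeR adjusted p = 2.03e-06), and -3.06 ± 0.13 (SE, edgeR adjusted p = 6.03e-08) in whole nerve. All 20 mitotic spindle genes were higher at day 3 in each tissue, with median log2 fold changes of 1.59 in Schwann cells and 3.28 in whole nerve, and the difference was negative for all 20, against 13.7% of all genes. Birc5, which encodes survivin of the chromosomal passenger complex, rose most of them in Schwann cells, a log2 fold change of 2.13 ± 0.33 (SE, edgeR adjusted p = 0.00045), and the spindle kinesin Kif15 least, 0.74 ± 0.13 (SE, edgeR adjusted p = 0.00104).

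Of 28 other microtubule-binding proteins tested in Schwann cells 11 were higher and 10 lower at day 3, and of 32 in whole nerve 4 were higher and 13 lower. Crmp1, a collapsin response mediator, had the largest Schwann cell change, a log2 fold change of 5.08 ± 0.25 (SE, edgeR adjusted p = 2.5e-07), and was 2.58 ± 0.26 (SE, edgeR adjusted p = 2.23e-05) in whole nerve, and its relative Dpysl5 had the smallest, -4.86 ± 0.49 (SE, edgeR adjusted p = 2.78e-05). Nucleation and minus-end genes were higher in 5 and lower in 1 of 15 in Schwann cells and higher in 8 and lower in 4 of 15 in whole nerve, with Cdk5rap2, which anchors gamma tubulin, at a log2 fold change of 1.06 ± 0.10 (SE, edgeR adjusted p = 2.23e-05) and Nin, encoding ninein of the centrosome, at -0.70 ± 0.12 (SE, edgeR adjusted p = 0.00102) in Schwann cells. Tubulin modification enzymes were higher in 2 and lower in 4 of 16 in Schwann cells and 1 and 4 of 16 in whole nerve. In Schwann cells their ends were the vasohibin cofactor Svbp with a log2 fold change of 0.85 ± 0.43 (SE, edgeR adjusted p = 0.12, not past the threshold) and the carboxypeptidase Agbl3 with -1.15 ± 0.16 (SE, edgeR adjusted p = 0.000275). Folding cofactors were higher in 2 of 6 in Schwann cells and in none of 6 in whole nerve, from Arl2 with a log2 fold change of 1.11 ± 0.21 (SE, edgeR adjusted p = 0.00158) to Tbcb with -0.51 ± 0.57 (SE, edgeR adjusted p = 0.475, not past the threshold) in Schwann cells. Severing enzymes were higher in 1 of 6 in Schwann cells, and higher in 2 and lower in 2 of 6 in whole nerve, from Katnal1 with a log2 fold change of 1.19 ± 1.93 (SE, edgeR adjusted p = 0.626, not past the threshold) to Fign with -0.25 ± 0.19 (SE, edgeR adjusted p = 0.287, not past the threshold) in Schwann cells.

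**Figure D5:**
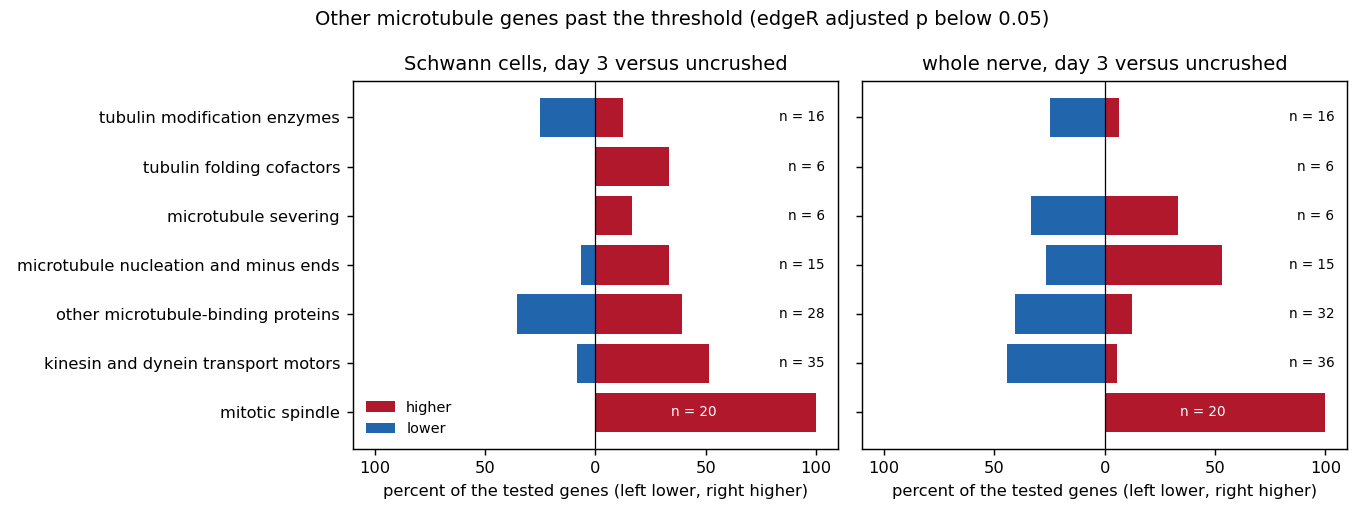
Bars give the percent of tested genes of each list that were higher (right) or lower (left) at day 3 at an edgeR adjusted p below 0.05, in Schwann cells (left panel) and whole nerve (right panel), with the number tested. All 20 mitotic spindle genes were higher in both tissues, and of the transport motors 18 of 35 were higher in Schwann cells and 16 of 36 lower in whole nerve.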

How the data were processed

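RNA of Schwann cells and of whole nerve was sequenced after amplification of the cDNA. The authors aligned reads with STAR to Rnor_6.0 and deposited RSEM expected counts per gene, which are estimates and not normalized. The deposited FPKM of RSEM is per gene length and library total, and the deposited TPM of RSEM was not used for results. Strand use is not given in the sources used here, which also differ on the version of STAR, and 8 columns of a module table, whose names do not give the tissue, were not used. That table also holds the modules of the authors, which were not read.

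Expected counts were rounded and tested with edgeR 4.0.16 in R 4.3.3 (quasi-likelihood test, TMM, filterByExpr) with Benjamini-Hochberg adjustment over all genes tested and a threshold of 0.05. Fits held the 8 Schwann cell libraries, the 8 whole nerve libraries or all 16, with the group as the term. The SE was computed as |log2 fold change| over the root of the F statistic, and intervals of differences use the t quantile at the fit's degrees of freedom. Levels are deposited FPKM divided by each library's TMM factor, because the unscaled ratios of crushed over uncrushed whole nerve were shifted by 0.3 to 0.34 (log2), and by at most 0.06 in Schwann cells. Shares of tubulin isotypes were tested with an exact permutation test, the code was tested on simulated data, and DESeq2 1.42.0, upper quartile normalization, no filter, a replicate block, the 4 libraries compared and each library left out were alternatives. Tables and plots used Python 3.11.15, numpy 2.4.6, scipy 1.17.1, pandas 2.3.3 and matplotlib 3.10.9. Promoter windows came from RefSeq (GRCr8) by symbol, whereas no genome of Rnor_6.0 was used here.

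Every member is named. Of each of the 7 lists of other microtubule genes, counts are given and the 2 genes at the ends of the day 3 log2 fold changes in Schwann cells are named, and markers are named where they move with a member. Members and lists were chosen with earlier results of these data known. A marker of the Schwann cell list is not reported here, so no sum over that list is given.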

Additional observations from a re-analysis of the deposited data

Results flagged for a closer look

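The effect of crush differed between Schwann cells and whole nerve at day 3 for 20 of 37 members tested. This used the interaction term of the edgeR fit of all 16 libraries. Of all genes tested, 12.3% had a positive difference and 13.7% a negative one. The log2 difference, Schwann cells minus whole nerve, was 2.70 for Tubb4a, 2.55 for Tppp, 2.55 for Map7, 1.55 for Tubb3, 1.54 for Map9, 1.50 for Tppp3, 1.27 for Map1b, 1.13 for Tuba1a, 0.98 for Tuba1c, 0.84 for Mapre3, 0.84 for Map4, 0.75 for Map1a, 0.72 for Stmn1, 0.51 for Clasp2 and 0.39 for Clip1. It was -2.37 for Tuba4a, -1.57 for Tubb6, -0.74 for Map2, -0.52 for Mapre2 and -0.40 for Mapre1. Of these, 14 held in every alternative, and Clasp2, Clip1, Map7, Mapre1, Mapre2 and Mapre3 did not.

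At day 5 the effect differed for 16 of 37 members, where 12.6% of all genes had a positive difference and 14.9% a negative one. The log2 difference, Schwann cells minus whole nerve, was 2.50 for Tubb4a, 1.64 for Tuba1c, 1.35 for Tppp, 1.29 for Mapre3, 1.10 for Map1b, 1.08 for Tuba1a, 1.08 for Stmn1, 1.05 for Map9, 0.84 for Tppp3, 0.79 for Tubg1, 0.74 for Tuba1b and 0.71 for Map4. It was -2.29 for Tuba4a, -1.17 for Map2, -1.16 for Tubb6 and -0.79 for Mapre2. Of these, 14 held in every alternative, and Tppp3 and Tubg1 did not.

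For day 7, 16 of 37 members differed between the tissues, where 11.6% of all genes had a positive difference and 14.4% a negative one. The log2 difference, Schwann cells minus whole nerve, was 2.61 for Tubb4a, 1.73 for Tppp, 1.49 for Tuba1c, 1.44 for Map9, 1.29 for Tuba1a, 1.20 for Mapre3, 1.20 for Map1b, 1.12 for Stmn1, 1.01 for Map1s, 0.77 for Tubg1, 0.75 for Map4 and 0.73 for Tuba1b. It was -3.42 for Tuba4a, -1.86 for Stmn2, -1.02 for Mapre2 and -0.99 for Tubb6. Of these, 13 held in every alternative, and Map1s, Stmn2 and Tubg1 did not. Groups of 2 libraries were too small for a test of single libraries that stand apart.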

How the results depend on the processing

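Of 324 calls on members over the 15 comparisons, 244 held in every alternative, and no called log2 fold change changed its sign. DESeq2 lost 20 calls, the fit without the filter on low counts 10, upper quartile normalization 5, and the fit on the 4 libraries compared 10 of 173. Leaving out 1 library lost 215 of 1504. The counts of members that moved by over 1.5 times were few. Lower members in Schwann cells at day 3 went from 5 to 3 to 4 without 1 library. From day 3 to day 7 in Schwann cells, higher members went from 2 to 0 to 1 and lower ones from 17 to 11 to 14 without 1 library. Higher members from day 3 to day 7 in whole nerve went from 1 to 2 without the filter, 0 in the fit on 4 libraries and 0 to 1 without 1 library. Members with a negative difference of the injury effect went from 5 to 3 to 5 at day 3 without 1 library and from 4 to 7 at day 5 with DESeq2. Counts over all genes moved by over 1.5 times in 11 cases, each from day 3 to day 7 without 1 library, to 760 to 873 higher and 773 to 899 lower genes in Schwann cells and 742 to 760 higher and 893 to 1164 lower genes in whole nerve. The cause was not tested beyond the smaller number of samples. When related genes were taken as 1 gene, the change of share in percentage points was 0.455 for Tuba1a in Schwann cells, -0.075 for Tuba1b and for Tuba1c in whole nerve, 12.8 for Tubb2a in Schwann cells and 11 in whole nerve and -20.5 for Tubb4b in whole nerve, each opposite to the single gene, because the groups of genes hold members that moved apart. With deposited FPKM in place of scaled FPKM, an alternative chosen after seeing the data, the log2 ratio of summed alpha tubulin in whole nerve at day 5 over uncrushed was 0.009 against -0.296, and at day 3 0.394 against 0.053, because deposited FPKM carries a shift of 0.3 to 0.34 (log2) in whole nerve.

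Replicate numbers showed no sign of pairing the libraries, which does not exclude pairing. Deviations of libraries with the same number correlated at -0.058 to 0.084 between groups, pairs of groups across the tissues included, and a fit with a replicate block kept every count of members within 1.5 times and lost 7 of 324 calls. Precision is limited by 2 libraries a group, by few counts for Tubg2, Map7, Stmn3 and Dcx in Schwann cells, and by the division of reads among similar tubulin genes. Intervals of counts cover counting error only, because amplified reads without molecular identifiers are not independent molecules.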
